A study of Homo sapiens with 23 samples.

Results

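Lysine butyrylation is the addition of a butyryl group, an acyl chain longer than acetyl, to the side chain of lysine. On histones it is placed by some of the acetyltransferases from butyryl-CoA, which cells make from butyrate, the short-chain fatty acid that gut bacteria form from dietary fibre. H3K18 and H4K12 lie in the tails of different histones and are both known as sites of acetylation at active promoters and enhancers. The regions described here are the places where butyryl marks at both sites were called together in NaBu, that is, in cultures of SW480, a human colorectal cancer cell line of epithelial origin, kept in 1 mM sodium butyrate for 12 to 16 h.

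Chromatin immunoprecipitation followed by sequencing (ChIP-seq) had been done with antibodies against butyryl (bu), propionyl (pr) and acetyl (ac) H3K18 and H4K12, in 10 groups of 2 replicate libraries, with 1 input library of sheared chromatin from each of 3 conditions. H3K18bu and H4K12bu were measured in NaBu, H3K18pr and H4K12pr in cells given 10 mM sodium propionate (NaPr) for the same time, and H3K18ac and H4K12ac in NaBu, in NaPr and in untreated cells. All groups are of the same cell line, and the labels do not say whether replicates came from separate cultures, so every p below measures only the spread between these libraries, which may be technical. The deposited values are peak lists on hg38, in which each peak carries a fold over local background, and a list holds no read totals, so its length stands in for depth.

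Peaks of the 4 butyryl libraries were merged wherever they shared at least 1 bp, and a merged region was kept when it held a peak of all 4. This gave 3214 regions, called dual-site regions here, of 35169 butyryl regions (9.14%). For comparison, 4852 regions held a peak of both H3K18bu libraries and of neither H4K12bu library (H3K18bu-only), and 96 the reverse (H4K12bu-only). The H4K12bu lists were short, with 9642 and 8158 peaks against 22059 and 22497 for H3K18bu, and of 3762 regions held by both H4K12bu libraries 85.4% were dual-site, against 29.3% of the 10965 held by both H3K18bu libraries. The merged lists of all 23 libraries held 895576 regions, from 2187390 peaks.

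Since all 4 lists chose the members, their folds are a description. The median fold at the dual-site regions was 5.53 and 5.96 in the H3K18bu libraries and 4.01 and 3.78 in the H4K12bu libraries, where the other regions of the same lists had medians of 3.35, 3.36, 3.22 and 3.14. The members took 17.5% and 16.7% of the H3K18bu peaks and 43.2% and 49.3% of the H4K12bu peaks, but between 85.3% and 92.8% of the strongest 1000 peaks of each list. The regions had a median width of 998.5 bp (lowest 219, highest 11053), and the strongest summits of any pair of butyryl libraries lay a median of 73 to 85 bp apart between histone sites, and 73 and 87 bp apart between replicates of H3K18bu and of H4K12bu. At the edge of the rule, judged by the weakest peak, the member in the body of DCTD had folds of 3.22, 2.73, 3.77 and 2.98, with a lowest −log10 p of 2.02. Of the regions held by 3 libraries, the strongest left out, 98 bp from the 5′ end of UPF2, had 7.67, 10.3 and 7.80 in H3K18bu replicates 1 and 2 and H4K12bu replicate 1 and no peak in H4K12bu replicate 2. The next, at CSTF2T and NVL, also missed 1 library each, with folds of 6.58 to 12.0 in the rest.

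Sequences are shown first for the 4 highest dual-site regions away from promoters that could be printed (summits close together and no untranslated region), ranked by the lowest of their 4 butyryl folds, because these carry the strongest butyryl signal of the set that is not tied to the start of a protein-coding or long non-coding RNA (lncRNA) gene. Each is named by the gene with the nearest 5′ end and read from the plus strand of hg38. Capitals mark the stretch between the outermost of the 4 butyryl summits, and lower case the flanks.
MIR23AHG (chr19:13850877-13851070): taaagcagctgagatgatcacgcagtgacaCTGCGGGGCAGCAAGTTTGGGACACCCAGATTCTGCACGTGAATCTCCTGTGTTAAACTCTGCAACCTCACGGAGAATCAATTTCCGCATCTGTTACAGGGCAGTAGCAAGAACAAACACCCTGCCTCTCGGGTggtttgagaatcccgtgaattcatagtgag
CCDC200 (chr17:43315771-43315878): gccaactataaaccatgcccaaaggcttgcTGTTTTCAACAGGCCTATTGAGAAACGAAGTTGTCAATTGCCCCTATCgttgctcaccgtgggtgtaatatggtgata
IQSEC3 (chr12:53340-53445): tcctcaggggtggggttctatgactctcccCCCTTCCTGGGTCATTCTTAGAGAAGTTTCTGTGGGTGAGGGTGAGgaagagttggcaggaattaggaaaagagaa
OGDH (chr7:44638481-44638594): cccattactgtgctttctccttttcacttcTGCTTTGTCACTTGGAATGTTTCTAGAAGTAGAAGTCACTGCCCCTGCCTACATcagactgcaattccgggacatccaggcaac

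The first of these lies 8017 bp from the 5′ end of MIR23AHG, the host transcript of a microRNA cluster, in a region of 3936 bp at chr19:13850696-13854631. Its butyryl folds were 17.9 and 23.1 for H3K18bu and 18.6 and 14.8 for H4K12bu. It held peaks of all 16 other immunoprecipitated libraries, with H3K18pr at 128 and 76.1, H4K12pr at 63.5 and 46.9, and H3K18ac in NaBu at 71.7 and 65.6. The NaBu input also had a peak there, with a fold of 5.44. The region near CCDC200 (chr17:43315571-43316088, intergenic) had 19.1 and 37.8 for H3K18bu and 15.8 and 14.8 for H4K12bu, and no input peak. The region near IQSEC3, a synaptic exchange factor gene at the end of the short arm of chromosome 12 (chr12:52439-55087), had 15.2 and 36.4, and 13.8 and 13.3. There H3K18ac had folds of 27.2 and 22.2 in NaBu and 8.67 and 3.82 in untreated cells. H4K12ac had 10.7 and 9.44 in NaBu and 2.74 and 2.98 in untreated cells, each on the scale of its own list. The region inside OGDH, which encodes a subunit of the 2-oxoglutarate dehydrogenase complex, had 14.7 and 25.3 for H3K18bu and 11.2 for H4K12bu replicate 2, with replicate 1 slightly below that. It lay 31964 bp from the nearest 5′ end and held a NaBu input peak of 4.06.

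By the same measure, the highest regions at promoters were those of lncRNA genes beside RNU5E-1 (14.7) and RNU2-63P (14.2), of an lncRNA overlapping the same region as NDUFA4, a mitochondrial respiratory protein gene (13.4, with a NaBu input peak of 3.70), of BLCAP (12.5), of CALM3, which encodes calmodulin (12.3), and of DNAAF10 and PNO1, a ribosome assembly factor (11.7). All 10 regions with the highest values held peaks of all 16 acetyl and propionyl libraries, and 6 of them lay at a promoter as defined below.

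Small nuclear RNAs (snRNAs) are the RNA cores of the spliceosome and related particles, transcribed from short genes whose control elements lie just upstream. That they recur among the highest regions was noticed after the values were seen. Of the 25 highest regions 5 overlapped an snRNA gene, against 28 of all 3214 (0.871%). Of 1901 annotated snRNA genes 28 overlapped a dual-site region (1.47%), of which 19 were among the 123 whose names do not end in P, the usual mark of a pseudogene (15.4%), and 9 among the 1778 whose names do (0.506%). The genes without that ending included members of both spliceosomes, RNU5E-1, RNU5D-1, RNU4-1, RNU4-2 and several RNVU1 copies of the major one and RNU11, RNU12, RNU4ATAC and RNU6ATAC of the minor one, as well as RNU7-1, which acts in histone mRNA processing, and RN7SK, which holds the elongation factor P-TEFb. snRNA genes have near-identical copies among which reads can be split, so which copy carried the signal is uncertain.

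All 28 regions also held peaks of at least 14 of the 16 acetyl and propionyl libraries, so the calls there were not particular to butyryl marks. The butyryl summits sat at a similar place on most of these genes, and summits of the other marks were not compared there. In 25 of 28 the mean summit of the 4 libraries lay upstream of the 5′ end, with a median of -110 bp, and in 23 it lay between -84 and -141 bp. The exceptions were RNU4-73P, RNU6-919P, RNU6ATAC38P, RNU4-8P and RNVU1-1. RNU5E-1 had folds of 18.5 and 34.2 for H3K18bu and 14.7 and 16.7 for H4K12bu, with its summit at -104 bp. RNU11 had 12.4 and 18.8, and 9.38 and 10.5, at -107 bp. RNU12 had 10.3 and 16.3, and 6.54 and 6.02, at -119 bp. Untreated H3K18ac folds were 12.3 and 15.9 at RNU5E-1, 12.8 and 10.8 at RNU11 and 16.2 and 15.8 at RNU12, each on the scale of its own list. None of these 3 regions held an input peak, but 11 of the 28 (39.3%) held a peak of at least 1 input, against 27.6% of all dual-site regions. The input was that of NaBu in 2 of them (RNU4ATAC and RNU4-8P). The sequences of these 3, picked by name, are given as examples, and the summits of the 4 libraries there lay within 15 to 41 bp of each other. Capitals again mark the stretch between the outermost summits, and the plus strand shown is the strand of all 3 genes.
RNU5E-1 (chr1:11908010-11908085): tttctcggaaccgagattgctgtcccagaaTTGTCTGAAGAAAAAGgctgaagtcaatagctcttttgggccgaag
RNU11 (chr1:28648434-28648535): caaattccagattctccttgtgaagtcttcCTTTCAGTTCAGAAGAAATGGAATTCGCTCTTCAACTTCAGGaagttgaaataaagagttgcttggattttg
RNU12 (chr22:42615078-42615171): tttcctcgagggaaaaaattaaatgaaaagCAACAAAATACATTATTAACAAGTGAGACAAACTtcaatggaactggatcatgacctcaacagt

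**Figure D1:**
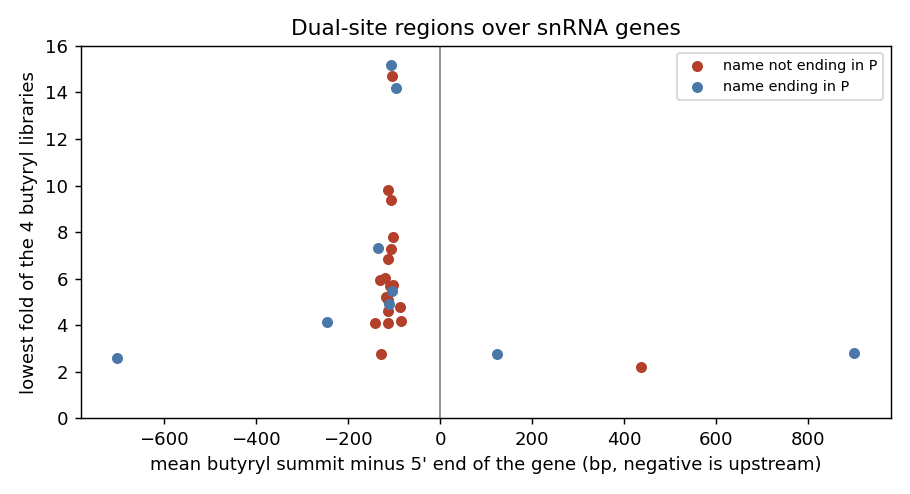
Position and strength of the 28 dual-site regions that overlap an snRNA gene. The x axis gives the mean summit of the 4 butyryl libraries relative to the 5′ end of the gene in bp, the y axis the lowest of the 4 butyryl folds, and each point is 1 gene, coloured by whether its name ends in P. Of the points 23 fall between -84 and -141 bp, and those outside that range have lowest folds of at most 4.12.

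A region was assigned to a promoter when its mean butyryl summit was no more than 1 kb from the start of any lncRNA or protein-coding gene (GENCODE 44), otherwise to a gene body or to intergenic sequence. Of the dual-site regions 828 lay at promoters (25.8%, 95% Wilson interval 24.3 to 27.3, covering counting error only), 1616 in gene bodies (50.3%) and 770 between genes. The promoter share was 14.0% of the 4852 for H3K18bu-only regions, 37.5% (28.5 to 47.5) for the 96 H4K12bu-only regions and 17.8% for all butyryl regions. The median distance to the nearest 5′ end was 9990 bp, against 16480 bp for H3K18bu-only regions. Regions are not replicates and these lists chose them, so no test was made. Restricting all lists to peaks with q under 0.05 left 797 regions, of which 32.4% lay at promoters.

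Of the promoter regions 620 lay at the start of a protein-coding gene and 208 at that of an lncRNA alone, and 251 had 5′ ends on both strands within the window. Counted by gene, 813 of 20033 protein-coding genes (4.06%) and 415 of 18866 lncRNA genes (2.20%) had a dual-site region within 1 kb of the 5′ end. For these counts any part of the region sufficed, whatever the place of its mean summit. With the gene body and 1 kb on both sides included, these shares were 8.96% and 3.99%. The mean summit lay downstream of the 5′ end in 392 of the 828 (47.3%), at a median distance of 332 bp to either side, and 339 of the regions (40.9%) covered the 5′ end itself. In H3K18bu-only promoter regions 16.4% did so. The same 5′ ends were GC rich, with 60.9% GC in 200 bp centred on them, while 200 bp centred on the butyryl summits had 49.5%.

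Gene groups were read against the 4.06% of protein-coding genes with any part of such a region within 1 kb of the 5′ end (2.20% for lncRNA genes). This is looser than the promoter rule by mean summit. The regions counted for FOSL1, CCND2 and GSK3B had mean summits 2620, 1779 and 1051 bp from the nearest 5′ end. The lists were chosen with earlier results of these data known, and their shares are descriptions. Immediate early genes, which respond within minutes to growth factors, had 6 of 22 (27.3%): EGR1, EGR3, DUSP1, DUSP4, IER2 and HES1. At EGR1, a zinc finger factor, the folds were 8.36 and 4.06 for H3K18bu and 5.44 and 3.53 for H4K12bu. At DUSP1, a phosphatase that shuts off MAP kinases, they were 5.25 and 5.25, and 3.57 and 3.28. Over the 6 promoters the lowest fold of the 4 libraries ran from 2.51 (HES1) to 3.85 (IER2).

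AP-1 and MAF genes, basic leucine zipper factors that bind the TGANTCA motif, had 3 of 16 (18.8%), FOS, FOSL1 and FOSL2. FOS had butyryl folds of 4.66, 5.46, 2.94 and 4.84, and FOSL2 6.53, 7.13, 6.42 and 4.33. At FOS the H3K18ac folds in NaPr were 8.47 and 46.2, and 1 of the H4K12ac libraries in NaPr had no peak. Unfolded protein response genes had 5 of 20, DDIT3, XBP1, TRIB3, PDIA4 and SYVN1, among which DDIT3, a stress-induced factor that promotes cell death, had the highest lowest-fold, 3.88. Keratin and epithelial genes had 4 of 15 (26.7%), KRT8, KRT18, KRT19 and EPCAM, and the intermediate filament gene KRT8 had 3.62, 5.64, 3.86 and 4.27. These are also the 4 of 10 colon epithelial markers with a dual-site promoter, while 0 of 8 blood, 0 of 9 fibroblast and endothelial and 0 of 8 liver, muscle and neuron markers had one.

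Splicing factors of the SR family had 3 of 12 (SRSF3, SRSF4 and SRSF7), acyl-lysine readers 2 of 13 (BRD2 and TAF1), BCL2 family genes 2 of 15 (BCL2L1 and PMAIP1), the Wnt list 4 of 32 (TLE3, BCL9L, GSK3B and TNFRSF19) and ribosomal protein genes 8 of 77. TLE3, a corepressor of Wnt targets, had 18.5, 19.3, 8.42 and 10.4, the strongest of the Wnt list. RPL35A, of the large ribosomal subunit, had 13.1, 28.2, 9.60 and 11.4. Growth and stress lncRNA genes had 4 of 22, NEAT1, MALAT1, SNHG15 and SNHG3, and NEAT1, the scaffold of nuclear paraspeckles, had 9.51, 11.1, 8.20 and 8.42.

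Other lists were nearer to the share of all genes: proteasome subunits 3 of 40 (7.50%), TGF-beta, SMAD and ID genes 2 of 26 (7.69%), cell cycle genes 2 of 26 (RB1 and CCND2), motility and adhesion genes 2 of 30 (LAMB3 and CLDN4), Krüppel-like and SP factors 1 of 16 (KLF6), histone deacylases 1 of 18 (HDAC6), histone acyltransferases 1 of 13 (NCOA3), intestinal transcription factors 1 of 20 (HNF4A) and replication-dependent histones 3 of 74 (4.05%). Short-chain acyl-CoA metabolism had 0 of 17 and short-chain fatty acid transport and sensing 0 of 11, lists too short to be set apart from 4.06%, and ACSS2, an acetyl-CoA synthetase gene of the first, had a dual-site region in its body. With gene bodies counted, the shares included 7 of 15 (46.7%) for the MYC network and 8q24, 9 of 22 (40.9%) for immediate early genes and 11 of 30 (36.7%) for motility genes, against 8.96% of all protein-coding genes and 3.99% of lncRNA genes. The first list mixes both kinds, and of its 7 genes MYC, PVT1, PCAT1, CASC8 and CASC11 are neighbours at 8q24. Gene length was not taken into account in these shares. At 8q24 the lowest folds ran from 1.85 to 2.56 over PVT1, and the leading regions of MYC, CASC11, CASC8 and PCAT1 had 2.37, 2.44, 2.96 and 4.27. The motility genes held 28 regions, of which 8 lay over ACTN4, an actin crosslinker (lowest folds from 2.37 to 9.55), and 2 over MYH9, a non-muscle myosin (up to 7.81).

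Acetyl and propionyl peaks at the dual-site regions did not enter the rule. Nearly every region was acetylated in NaBu: H3K18ac peaks covered 99.6% and 99.8% of them in its replicates and H4K12ac peaks 96.8% and 90.6%. No dual-site region lacked an acetyl peak in all 4 NaBu acetyl libraries, and 2855 (88.8%) had all 4. In untreated cells H3K18ac peaks were at 92.2% and 90.5% and H4K12ac peaks at 89.5% and 89.5%, so most of these regions held acetyl peaks in cells not given butyrate. In NaPr the shares were 90.2% and 86.2% for H3K18ac, 76.0% and 70.8% for H4K12ac, 90.9% and 86.3% for H3K18pr and 86.3% and 85.9% for H4K12pr. The deposited NaBu acetyl lists carry the tag cnt in their names, as the untreated lists do, whereas the labels place them in NaBu. The labels were followed, and a mix-up of libraries was not tested.

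These shares were higher than at H3K18bu-only regions in all 8 acetyl and propionyl groups. The group means at dual-site and H3K18bu-only regions were 99.7% ± 0.110 (SD, n = 2) and 88.9% ± 1.89 for H3K18ac in NaBu, 93.7% ± 4.40 and 43.1% ± 23.6 for H4K12ac in NaBu, 91.4% ± 1.17 and 66.6% ± 3.48 for untreated H3K18ac, and 86.1% ± 0.308 and 56.4% ± 0.860 for H4K12pr. Over the 8 groups the mean difference was 28.7 percentage points, a description with no test, since the butyryl lists that split these regions also made the dual-site ones the stronger. The dual-site regions are also wider (median 998.5 bp against 469 bp) and stronger in H3K18bu, and in a fixed window of 400 bp at the mean summit the difference was 27.8 points. The H4K12ac lists in NaBu, with the widest spread, held 88658 peaks in replicate 1 and 11680 in replicate 2. Leaving out H3K18bu replicate 1 raised the difference to 48.6 points, and leaving out H4K12bu replicate 1 lowered it to 18.4. Both sets of regions change with this. In the first case H3K18bu-only regions need a peak of H3K18bu replicate 2 alone, and in the second they need only lack a peak of H4K12bu replicate 2.

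**Figure D2:**
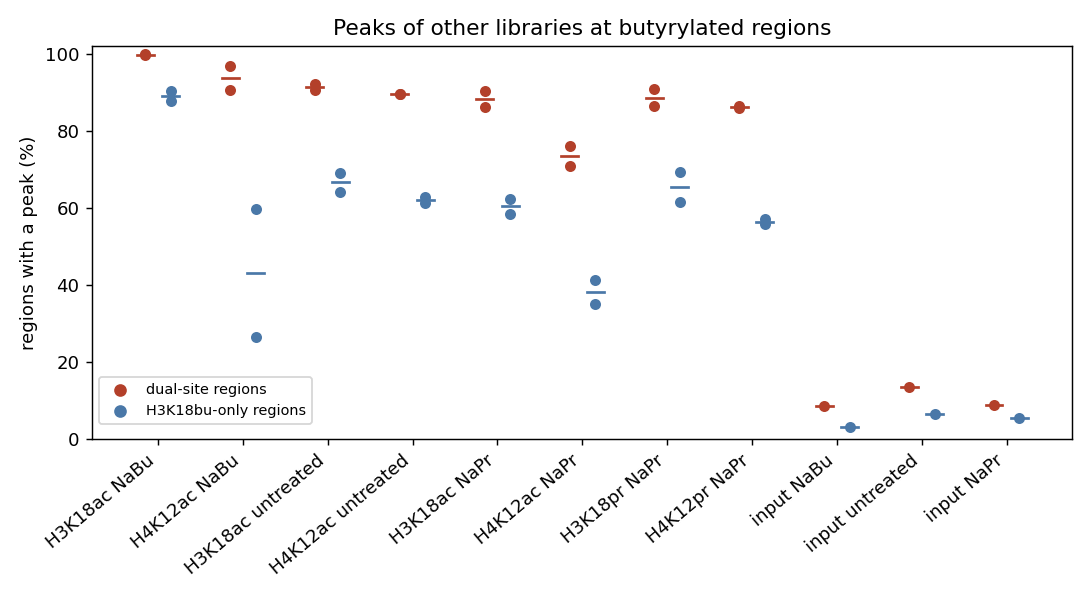
Percentage of 3214 dual-site and 4852 H3K18bu-only regions that overlap a peak of each other library. The y axis is the percentage of regions with a peak, each point is 1 library, the short bars are group means, and the 3 inputs have 1 library each. Dual-site regions lie above H3K18bu-only regions in every group, from 99.7% against 88.9% for H3K18ac in NaBu to 73.4% against 38.1% for H4K12ac in NaPr, and all inputs lie at 13.6% or below.

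Acetyl peaks were compared between treatments over libraries, with labels permuted within histone site. The share of dual-site regions with an acetyl peak was 6.26 percentage points higher in NaBu than in untreated cells, by 8.31 for H3K18 and 4.22 for H4K12 (two-sided exact permutation test, p = 0.0556, the smallest that 36 arrangements allow, so that no result of this design can pass 0.05). The H3K18ac libraries did not overlap between the conditions, and neither did the H4K12ac ones. The regions were chosen on butyryl lists from NaBu chromatin, and the NaBu libraries form a batch of their own by the run tags of the lists, and batch cannot be told apart from treatment. The cnt tag on the NaBu acetyl lists is a further limit of this comparison. With the 8158 strongest peaks of every list, the difference was 31.2 points: 81.0% to 90.9% of the regions chosen on those lists held a NaBu acetyl peak and 53.1% to 57.8% an untreated one. When at least 50% of a region had to be covered it was 2.03 points (exact p = 0.944), and with q under 0.05 it was 1.69 (exact p = 0.444). In both of these H4K12 turned, to -10.2 and -0.251 points, while H3K18 stayed at 14.3 and 3.64.

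In NaPr the share with an acetyl peak was 9.62 points lower than in untreated cells, by 3.14 for H3K18 and 16.1 for H4K12 (p = 0.0556, the same exact test, sharing the untreated libraries with the comparison above). Neither the H3K18ac nor the H4K12ac libraries overlapped between these conditions. The H4K12ac libraries of NaPr, with 144275 and 130361 peaks, were shorter than the untreated ones with 208823 and 191194. At equal list lengths the difference was -0.430 points (exact p = 0.778), with H3K18 turned to 2.12 and H4K12 at -2.98. It was -19.2 with 50% of a region covered and -4.86 with q under 0.05 (both exact p = 0.0556). H3K18ac replicate 1 in NaPr stood apart: over the dual-site regions its folds had a Spearman correlation of 0.79 with those of untreated H4K12ac replicate 2 and of 0.51 with its own replicate, against 0.56 to 0.86 for the other acetyl replicate pairs, and without it the difference was -10.6 points. Its replicate was closest to H4K12ac replicate 1 in NaPr (0.72), and H4K12ac replicate 1 in NaBu was closest to H3K18ac replicate 2 in NaBu (0.65).

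Within NaPr, propionyl peaks were at 6.55 points more of the dual-site regions than acetyl peaks, 0.373 for H3K18 and 12.7 for H4K12 (exact permutation p = 0.111). The H3K18 libraries overlapped and the H4K12 libraries did not. At equal list lengths the difference was 8.28 points (p = 0.0556, exact test), with 50% of a region covered it was 18 (exact p = 0.111), with q under 0.05 it was 3.29 (exact p = 0.167), and without H3K18ac replicate 1 7.55. Propionyl and acetyl libraries of NaPr differ in their run tags too, so mark and batch cannot be told apart.

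Counted over libraries, 1711 dual-site regions (53.2%) held a peak of all 16 acetyl and propionyl libraries, and 2466 (76.7%) of all 4 propionyl libraries. The share with all 16 was 60.0% at promoters and 50.9% elsewhere. Regions with few other peaks were nearly all away from promoters: of 138 regions with no acetyl peak in any untreated library 3 lay at a promoter, of 161 with none in NaPr 5, and of 151 with no propionyl peak 10. By single library, the untreated acetyl lists held a peak at 97.5% to 99.2% of the promoter regions and 86.6% to 89.8% of the others. The count of 138 rests on these same lists, so these shares restate it. Counts over several libraries were not made for other butyryl regions, so whether they set the dual-site regions apart is not known. Untreated H3K18ac alone had a peak at 59.1% and 55.0% of all butyryl regions and at 69.1% and 64.1% of H3K18bu-only regions.

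**Figure D3:**
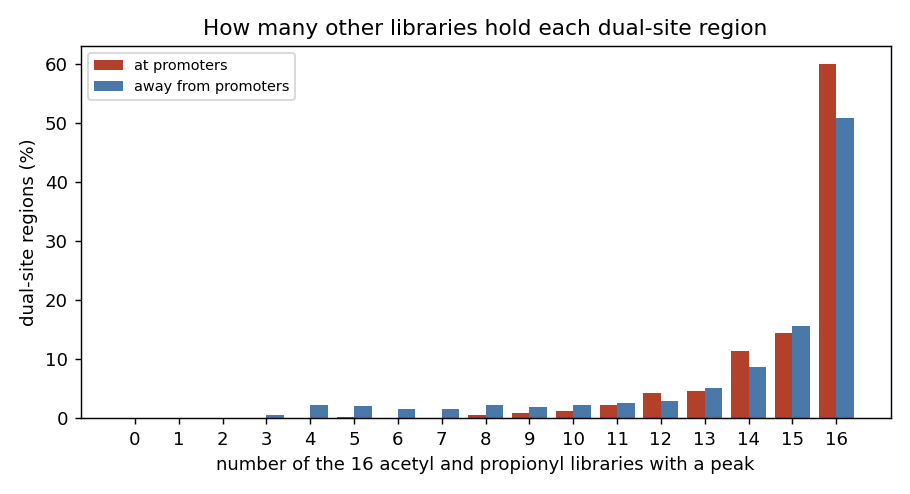
Number of the 16 acetyl and propionyl libraries with a peak at each dual-site region. The x axis counts libraries, the y axis is the percentage of the 828 regions at promoters and of the 2386 away from promoters, and the bars of each colour sum to all regions of that kind. The largest bars are at 16 libraries, with 60.0% and 50.9%, and the low bars at 4 to 8 libraries are nearly all of regions away from promoters.

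A group of 112 regions (3.48%) had acetyl peaks in all 4 NaBu libraries and in no untreated library. Of all dual-site regions, 59 (1.84%) had no peak in any immunoprecipitated library outside NaBu, and 7 of these overlapped a peak of at least 1 input. Neither count was made over H3K18bu-only or all butyryl regions, so neither share can be called high or low. The group of 112 was singled out after its values were seen. Of the 112, 2 lay at promoters, 16 overlapped any input peak, and the median distance to a 5′ end was 32246 bp. The highest by lowest butyryl fold lay inside LINC02331 (chr14:53845133-53846503), with 7.51 and 13.8 for H3K18bu, 6.16 and 6.90 for H4K12bu, 9.54 and 15.9 for H3K18ac in NaBu and 6.87 and 3.89 for H4K12ac in NaBu. The second lay in EML6, a microtubule-associated protein gene, 146369 bp from the start of RTN4 (chr2:54965363-54967110), with 6.14, 10.1, 6.57 and 6.33 in the butyryl libraries and 14.4, 11.1, 7.67 and 7.34 in the acetyl ones. The third lay 11064 bp from LINC00520, with 6.52, 10.0, 6.58 and 5.39, and 19.7, 15.5, 8.94 and 6.52. None of these 3 had a peak in any other library, the 3 inputs included. The NaBu libraries share a batch here too, and the cnt tag on the NaBu acetyl lists limits this group as well. The sequences at the summits of the 3 highest with summits close enough to print are shown because they mark sites called in NaBu only, with capitals as above.
LINC02331 (chr14:53846150-53846251): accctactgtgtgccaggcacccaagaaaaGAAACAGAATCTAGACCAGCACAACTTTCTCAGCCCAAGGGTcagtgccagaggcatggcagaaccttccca
LINC01215 (chr3:108136925-108137129): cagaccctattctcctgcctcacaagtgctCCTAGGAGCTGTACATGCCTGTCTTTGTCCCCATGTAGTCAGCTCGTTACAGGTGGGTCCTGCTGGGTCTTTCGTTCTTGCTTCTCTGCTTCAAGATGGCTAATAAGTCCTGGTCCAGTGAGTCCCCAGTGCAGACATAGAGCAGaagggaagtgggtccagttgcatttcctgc
ENSG00000259166 (chr14:101461146-101461263): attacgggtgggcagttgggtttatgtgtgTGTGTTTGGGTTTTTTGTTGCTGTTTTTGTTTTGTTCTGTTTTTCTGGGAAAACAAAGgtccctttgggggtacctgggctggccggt

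Where a dual-site region held a peak of another mark, the fold of that peak differed between promoters and other sites in a way that separated propionyl from acetyl marks. The log2 ratio of the median fold at promoters to that elsewhere was positive in all 12 acetyl libraries, from 0.09 to 0.85. It was -0.40 and -0.42 for H3K18pr and -0.04 and -0.12 for H4K12pr, and 0.11, -0.19, 0.17 and 0.08 for the butyryl libraries themselves. In H3K18pr replicate 1 the median fold was 13.8 at promoters and 18.2 elsewhere, and in untreated H3K18ac replicate 1 it was 17.6 and 11.7. Within NaPr the propionyl ratio was lower than the acetyl ratio by 0.48 on the log2 scale, 0.78 for H3K18 and 0.18 for H4K12 (two-sided exact permutation test, p = 0.0556, the smallest possible). This comparison was added after the data were seen, shares its batches with the propionyl comparison above, and gave values between -0.36 and -0.91 in the alternatives run. Without H3K18ac replicate 1 in NaPr it was -0.40.

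**Figure D4:**
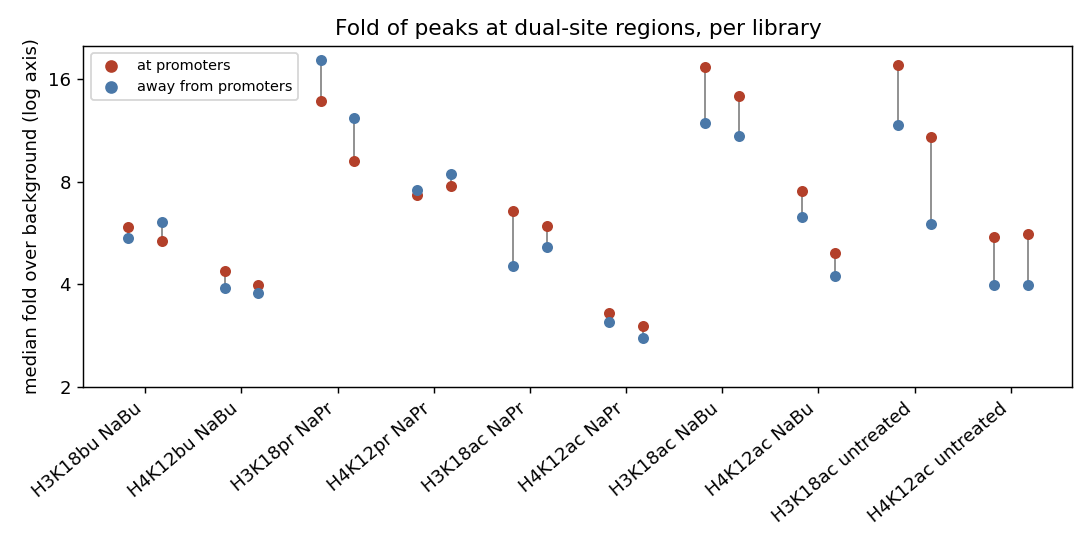
Median fold of the peaks at dual-site regions, at promoters and away from them. The y axis is the median fold over local background on a log axis, each joined pair of points is 1 library, and groups are in columns of 2 replicates. In all 12 acetyl libraries the promoter point is the upper one, and in the 4 propionyl libraries the lower one, by a log2 ratio of -0.04 to -0.42.

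Input chromatin had peaks at a minority of these regions. The NaBu input overlapped 273 (8.49%, Wilson interval 7.58 to 9.51), against 3.13% of H3K18bu-only regions, the NaPr input 8.81% and the untreated input 13.6%. At promoters 5.80% lay over a NaBu input peak and elsewhere 9.43%. A total of 886 regions (27.6%) overlapped a peak of at least 1 input, 98 of exactly 2 and 4 of all 3. In the fixed window of 400 bp the NaBu share was 5.29%, against 2.70% at H3K18bu-only regions, and 0.218% of the regions were covered to at least 50% by input peaks. The control against which the input lists were called is not given in the sources used here. With every region over an input peak left out, 2328 regions remained and the difference from H3K18bu-only regions was 28.8 points.

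The sequence under the summits was searched for 12 short motifs on both strands, in windows of 200 bp. AP-1 (TGANTCA) was in 8.25% of all dual-site windows (265 of 3214). It was in 6.29% and 6.25% of windows 5 kb to either side of these summits and 7.27% over all butyryl regions. Away from promoters the share was 8.84% (211 of 2386, Wilson interval 7.77 to 10.0), against 7.52% at such H3K18bu-only regions. At promoters it was 6.52%, against 4.72% at H3K18bu-only promoter regions and 5.32% at the 5′ ends of all genes. The cyclic AMP response element (TGACGTCA) was in 0.249% of the windows, 0.0622% and 0.0933% of the flanks and 1.30% of all 5′ ends. The E-box CACGTG was in 3.98% of the windows, at most 2.77% of the flanks, 2.68% of H3K18bu-only regions and 4.91% of all 5′ ends. At promoters the GC box (GGGCGG) was in 12.1% and the ETS motif (CCGGAAG) in 3.26%, against 6.93% and 1.77% at H3K18bu-only promoter regions and 33.1% and 7.12% in windows centred on all 5′ ends. A match is a description and not a bound site. TEAD (GGAATG) was in 13.7% of the windows, 12.8% of H3K18bu-only regions and 12.7% of all butyryl regions. The same 3 shares were 3.48%, 3.26% and 3.08% for TCF/LEF (ATCAAAG), 4.29%, 4.25% and 4.02% for RUNX (TGTGGTT), 3.05%, 3.01% and 2.84% for FOX (TGTTTAC), 4.67%, 4.37% and 4.02% for YY1 (AAGATGG) and 1.18%, 1.03% and 1.02% for HNF4 (AAAGTCCA). The CCAAT box was in 23.9% of windows away from promoters and 25.1% of such H3K18bu-only windows. Of the regions away from promoters that could be printed, the highest 3 with an AP-1 match near the summits are shown. The match is in capitals, as the form the motif takes here. Regions that could not be printed were passed over and may rank higher.
IPO7 (chr11:9364799-9365004): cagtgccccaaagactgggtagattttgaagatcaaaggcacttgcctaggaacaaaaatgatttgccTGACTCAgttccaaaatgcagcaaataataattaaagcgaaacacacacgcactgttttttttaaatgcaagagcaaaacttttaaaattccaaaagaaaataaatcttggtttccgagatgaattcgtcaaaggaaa
LINC01359 (chr1:64898429-64898597): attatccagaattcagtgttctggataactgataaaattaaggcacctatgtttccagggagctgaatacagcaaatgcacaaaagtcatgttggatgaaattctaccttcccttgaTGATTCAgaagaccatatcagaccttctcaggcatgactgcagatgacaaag
ENSG00000224621 (chr1:16173284-16173468): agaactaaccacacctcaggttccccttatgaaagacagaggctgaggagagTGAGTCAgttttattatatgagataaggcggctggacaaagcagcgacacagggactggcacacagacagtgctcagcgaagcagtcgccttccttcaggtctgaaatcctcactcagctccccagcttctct

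These 3, named by the nearest 5′ end, had butyryl folds of 10.8, 13.1, 5.79 and 10.2 (IPO7), 8.43, 10.5, 6.49 and 5.78 (LINC01359) and 11.9, 6.13, 7.51 and 5.76 (ENSG00000224621). The region named LINC01359 lay in a gene body, 103983 bp from the 5′ end of LINC01359. Away from promoters, the median H3K18pr fold was 22.8 and 14.2 in its replicates at regions with an AP-1 match and 17.9 and 12.0 at the others, while the H3K18bu medians were 5.35 and 5.94 with a match and 5.47 and 6.13 without. The NaPr input had a peak at 15.6% of the regions with a match and 8.92% of the others, and its part in the H3K18pr values was not tested. Of the 112 regions acetylated in NaBu and not in untreated cells, 13 had a match (11.6%, interval 6.91 to 18.9).

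The dual-site regions were spread unevenly over the chromosomes, at 1.04 per Mb of the genome. Chromosome 19 had 3.28 per Mb, chromosome 20 2.68 and chromosome 17 2.13, while chromosome 4 had 0.384, the X chromosome 0.455 and chromosome 9 0.462. Over 23 chromosomes the density had a Spearman correlation of 0.89 with that of H3K18bu-only regions, 0.64 with that of NaBu input peaks and 0.60 with that of protein-coding genes, given as a description. Chromosomes 19 and 20 stood out less in the share of butyryl regions that were dual-site, 10.3% and 9.22% against 9.14% over all.

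**Figure D5:**
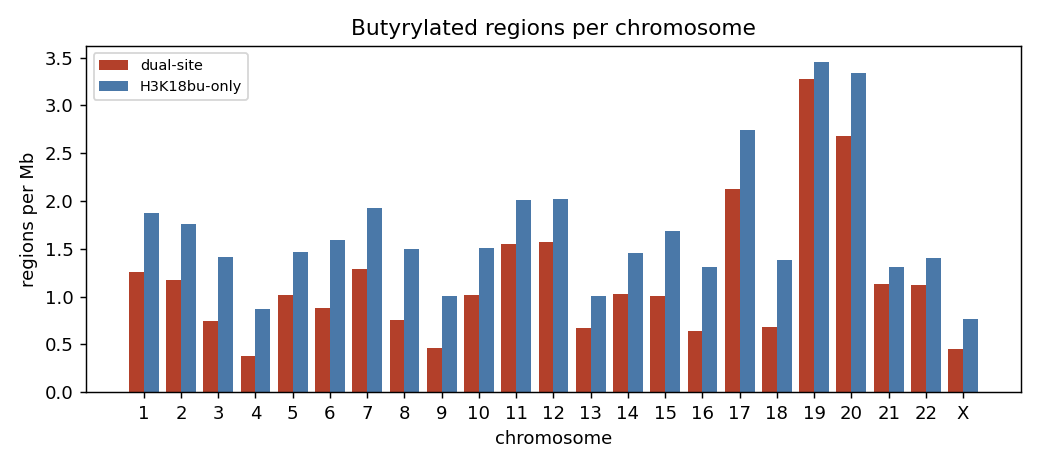
Dual-site and H3K18bu-only regions per Mb of each chromosome. The x axis lists chromosomes 1 to 22 and X, the y axis is regions per Mb of chromosome length, and bars start at 0. Both kinds are densest on chromosome 19, at 3.28 and 3.45 per Mb, and sparsest on chromosomes 4 and X.

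On a finer scale, 51.8% of dual-site regions had another within 50 kb, as did 51.7% of H3K18bu-only regions, of which there were more. Joined at that distance, 66 groups of at least 5 dual-site regions held 433 of them (13.5%), against 8.31% of H3K18bu-only regions in such groups. The largest held 16 regions in 315 kb at chr19:45402696-45717223, around FOSB, an AP-1 gene, ERCC1, of nucleotide excision repair, and VASP, an actin regulator. There H3K18ac in NaBu was called at 16 of 16 in both replicates, and H4K12ac in NaPr at 7 and 6. The second held 15 regions at chr8:125501090-125702532 near LINC02964, with the widest dual-site region of all, 11053 bp, and butyryl folds there of 10.4, 15.0, 7.35 and 6.47. The next widest were 7801 bp at the start of ARHGEF38 (9.47, 17.5, 6.21 and 8.49, with peaks of all 3 inputs) and 7413 bp inside NEDD4L, a ubiquitin ligase gene (14.1, 19.4, 8.76 and 8.62). The third group held 12 at chr11:65371361-65500738, over NEAT1 and MALAT1, of which 11 held peaks of all 16 other libraries. By gene body the most were over LINC00511 (11 regions), PVT1 and RUNX1 (10 each), CTBP2 and MYOF (9 each) and ACTN4, CACNA1C and SPRY4-AS1 (8 each). In the neighbourhood of MYC the oncogene itself had 2 dual-site regions reaching within 1 kb of its 5′ end and 3 over the gene with its flanks. PCAT1 had 4, CASC8 2 and CASC11 3, and the leading PCAT1 region had 7.26, 12.2, 4.50 and 4.27. Over PVT1 the lowest folds ran only from 1.85 to 2.56.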

How the data were processed

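Per the labels and the study's methods, the authors trimmed reads with cutadapt 1.8.1 after bcl2fastq 2.17.1, aligned them to hg38 with Bowtie2 2.3.1 and called peaks with MACS2 2.1.0 at p 0.01 for each library on its own, without pooling replicates, and removed blacklisted peaks. The deposited fold is the ratio of pileup to local background at the summit, and the deposited −log10 p-values and −log10 q-values belong to the same summit. Folds depend on the depth of a library and of its control, so folds of different lists are not on 1 scale. Regions were ranked by the lowest of their 4 butyryl folds, and this ranking carries that limit. Control of the input lists is not given in the sources used here.

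Intervals were merged in Python 3.11.15 with numpy 2.4.6 and pandas 2.3.3, and sequence was read with pysam 0.24.0 from hg38. Where a library had several peaks in a region the strongest was used. Samples were grouped by the labels, and exact permutations over libraries were enumerated in full. The functions were tested on simulated data with known answers. Wilson intervals (95%) came from scipy 1.17.1 and cover counting error only. A list gives no read total, so list length was used for depth, from 8158 to 208823 peaks among the immunoprecipitated libraries. Alternatives were q under 0.05, the 8158 strongest peaks of each list, summits within 500 bp, regions over input left out, other overlaps and promoter windows, each library left out, and the replicate block. Named regions were the 10 with the highest lowest fold of the butyryl libraries, the 5 highest at no promoter, the widest, and genes of the lists. The members and lists were chosen with earlier results of these data known. List genes are named in part, and 1 of the 10 highest regions is not reported here.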

Additional observations from a re-analysis of the deposited data

How the results depend on the processing

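No difference averaged over the histone sites changed direction in the alternatives run, but that of 1 site turned in 4 cases where the lists or the overlap were changed: H4K12ac between NaBu and untreated cells was -0.251 points with q under 0.05 and -10.2 with 50% of the region covered, H3K18ac between NaPr and untreated cells 2.12 with equal numbers, and H3K18pr minus H3K18ac -0.123 with summits within 500 bp. The number of dual-site regions was 797 with q under 0.05. It was between 3338 and 5108 when 1 butyryl library was left out, which loosens the rule to the remaining ones, the highest without H4K12bu replicate 2. The promoter share was 32.4% with q under 0.05, 24.2% with equal numbers of peaks, 29.7% with summits within 500 bp, 32.4% with a promoter window of 2.5 kb and 19.3% with protein-coding genes only, and 23.7% to 27.9% with 1 library left out. The share over a NaBu input peak was 4.02% with q under 0.05, 2.18% with equal numbers, 7.06% with summits within 500 bp, 0.218% with 50% of the region covered and 5.29% in a window of 400 bp, and 6.97% to 8.03% with 1 library left out. Leaving out regions over input gives it no value. With 1 library left out, the difference between NaBu and untreated acetyl peaks ran from 4.55 to 7.82 points, that between NaPr and untreated from -12.3 to -8.33, and that between propionyl and acetyl peaks from 5.26 to 8.02. With the replicate block the 3 differences were 6.26, -9.62 and 6.55 points and that of the promoter ratio -0.48, each with an exact p of 0.125, the smallest that 16 arrangements allow. Whether replicate numbers pair the samples is not known. Between compared groups, the deviations of same-numbered libraries from their group means in peak presence had correlations between -0.01 and 0.05 over butyryl regions. That cannot settle it, since most of these groups differ in treatment, and H3K18 was not set against H4K12 within a treatment. The 2 libraries of a group, the lists' lengths and the shared batch of the NaBu libraries limit all comparisons between groups.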
